A study of Mus musculus with 8 samples.

Results

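Circular RNAs made from 6 genes that mark heart cells other than cardiomyocytes are described here across sham-operated and pressure-loaded mouse hearts. The genes were chosen by name as markers: Scn7a for fibroblasts, Npr3 for endothelial and endocardial cells, Abcc9 and Ano1 for mural cells (pericytes and smooth muscle), and F13a1 and Adgre1 for macrophages. A circle was a member when the table of circles named 1 of these genes as its host. This gave 71 of 27391 circles, from 6 of 6492 host genes, with 787 of 254236 back-spliced reads. A back-spliced read is one that spans the junction where the RNA is closed into a loop. Scn7a and Npr3 had 5 circles each, Adgre1 had 7, Ano1 had 11, F13a1 had 18 and Abcc9 had 25, of which 1 was typed as an intronic circle (ciRNA).

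All libraries came from heart tissue of male wild-type (WT) mice. One group had a sham operation and the other transverse aortic constriction (TAC), a surgical narrowing of the aorta that makes the left ventricle pump against a raised pressure. Tissue was taken 8 weeks after surgery, and each group held 4 mice with 1 library each. The sources used here do not give the chamber, the age or the strain. The tissue was bulk, so that fewer cells of a type and less RNA per cell cannot be told apart.

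A circular RNA forms when the splicing machinery joins the end of an exon back to its own start or to that of an exon upstream, and the loop has no free ends. Such loops resist exonucleases and can outlast the linear mRNA of their gene. Long introns and inverted repeats beside the circled exons are known to favour the reaction. In the heart, cardiomyocytes supply most of the RNA mass, while fibroblasts, endothelial cells, mural cells and macrophages make up much of the cell number and take part in the remodelling that follows pressure overload.

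The closing junction is the sequence that a back-spliced read must contain, and it sets a circle apart from the linear mRNA. The junctions of the circle with the most reads in each gene, and of further circles of Npr3, Ano1 and F13a1 that share an exon border with it, are shown 5′ to 3′ on the RNA strand, with the last 15 bases of the last exon in lower case and the first 15 bases of the first exon in capitals. They were read from GENCODE M21 transcripts (mm10) at the exon borders that the table lists. The lines for F13a1 end in the same capitals because its main circles share a first exon. The paired lines for Npr3 likewise share their capitals, and those for Ano1 share their lower-case part because both end at exon 3.
Npr3 exons 3 to 4: aatgaggaggattacTGGTGATCATGTGTG
Npr3 exons 3 to 5: acaggacatttgaagTGGTGATCATGTGTG
Scn7a exons 5 to 9: ttactttatcaccagGAATACTTTGCTTGG
Abcc9 exons 12 to 15: aagcacaccggagtgGATTATTCCACCGAG
Ano1 exon 3: gagaatgacgaggatTTGCTGAACTCTCTG
Ano1 exons 2 to 3: gagaatgacgaggatACGCCACCGGGGTTG
F13a1 exons 9 to 11: acaaatttcaagaagGAACTACCACTGCTG
F13a1 exons 9 to 13: aagatcaccatcaagGAACTACCACTGCTG
F13a1 exons 9 to 14: gagaaaggtgttccgGAACTACCACTGCTG
Adgre1 exons 11 to 12: agacggagtacctagGCTTCCTTCTGTACA

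The libraries differed in depth, and several values below turn on this. Totals ran from 3963 to 100142 back-spliced reads in sham and from 1119 to 36120 in TAC, so that 1 read was worth 4.54 normalised reads in sham replicate 2 and 5.77 in TAC replicate 2, the libraries under 5000 reads, against 0.195 in sham replicate 4. A normalised read is a read divided by the size factor of its library. Sham replicate 4 also stood apart in its rare circles: 5.61% of its circles rested on 1 read, against 44.9% to 64.3% in the other libraries, and it held 17.9 reads per circle on average. Whether its circles were called or filtered like those of the other libraries, and whether linear RNA was removed, is not stated in the sources used here, so a 0 in that library need not mean the same as elsewhere. The 6 genes showed the same feature there, with 20 member circles and 1 single-read circle among them. In TAC replicate 1, 21 of 33 member circles rested on 1 read.

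Most member circles were rare, and a few carried each gene. Of the 71 circles, 33 (46.5%) were seen in 1 library only, against 61.7% of all circles in the table, and 24 rested on a single read. At least 4 libraries held 17 members (23.9%, against 13.6% of all circles), and all 8 held 1, the Abcc9 circle of exons 12 to 15. Reads came from both groups for 30 members, from sham alone for 14 and from TAC alone for 27. Over all 27391 circles these counts were 7501, 6734 and 13156. The circle with the most reads held 82.4% of the reads of Npr3, 55.7% for Scn7a, 54.1% for Adgre1, 37.4% for Ano1, 33.3% for Abcc9 and 28.9% for F13a1.

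Within a gene the circles reused the same exon borders. In F13a1, 4 circles began at exon 9 and held 94 of 128 reads (73.4%), ending at exon 11, 12, 13 or 14. The intron before exon 9 is 25255 nt long. In Npr3, 164 of 188 reads (87.2%) began at exon 3, behind an intron of 10809 nt. In Adgre1, 3 circles ended at exon 12 and held 68 of 111 reads (61.3%), and the intron after exon 12 is 20730 nt long. Scn7a reads ended mostly at exon 9 (51 of 88), Ano1 reads at exon 3 (57 of 107), and in Abcc9 4 circles began at exon 12 with 71 of 164 exonic reads (43.3%). The map of exon spans shows these shared borders and the exons that no circle covered.

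**Figure D1:**
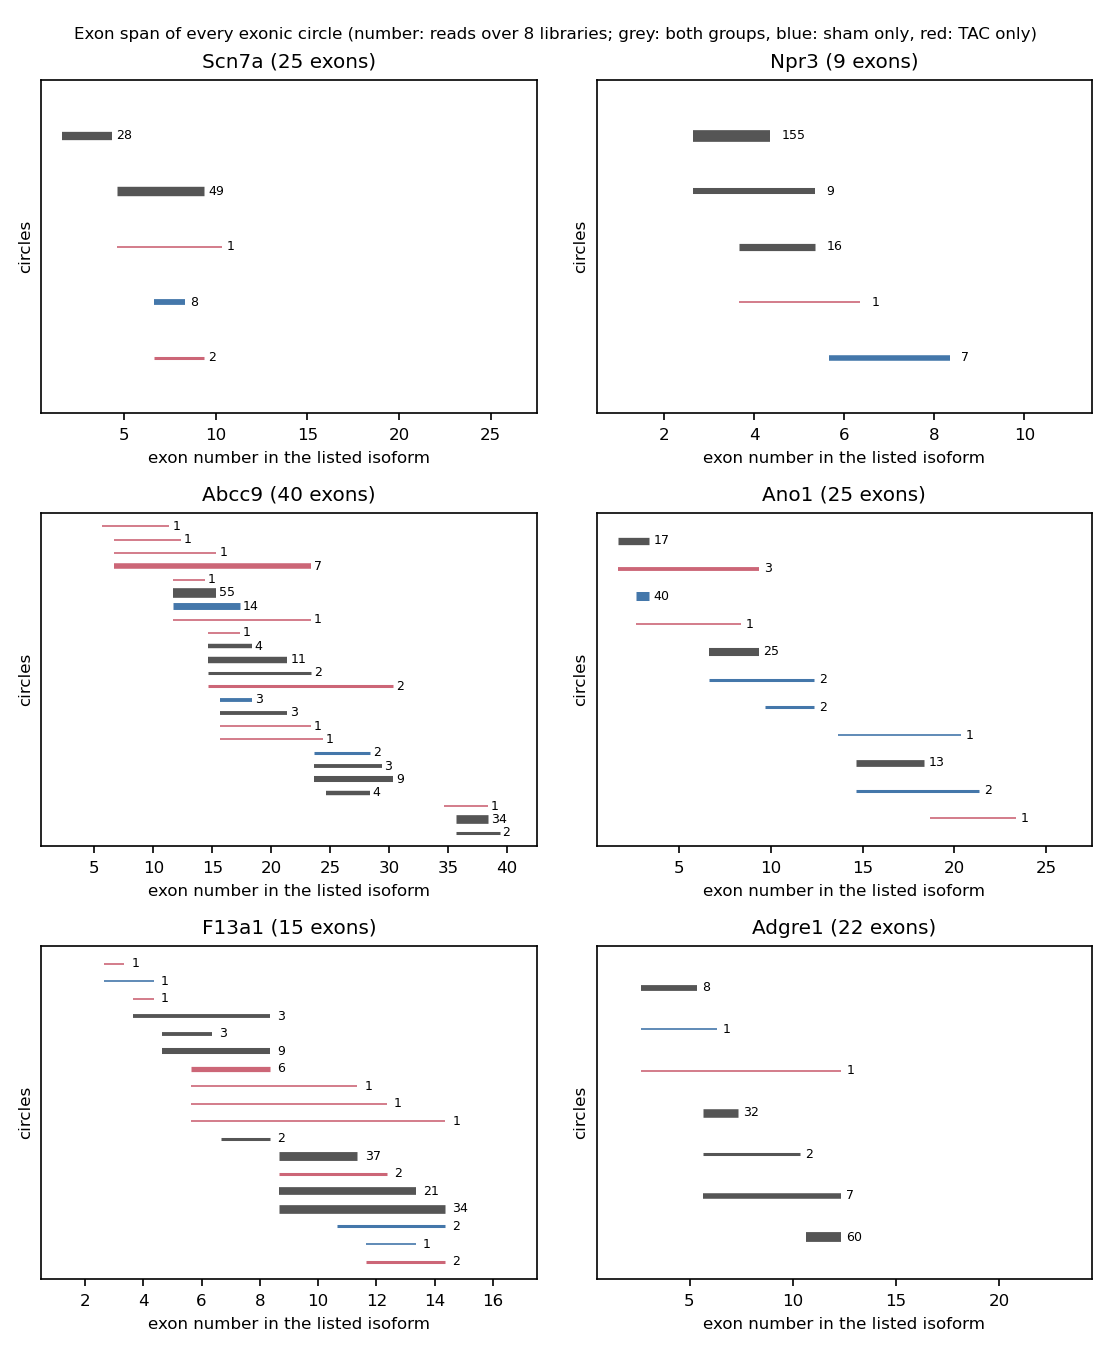
Exon span of each exonic circle of the 6 genes, 1 panel per gene, with the exon number in the listed isoform on the x axis and 1 row per circle; thicker lines have more reads (log scale of width), the number is the read total over 8 libraries, and colour marks circles read in both groups (grey), in sham only (blue) or in TAC only (red). The F13a1 circles with 37, 34 and 21 reads all start at exon 9, and the Npr3 circle with 155 reads spans exons 3 to 4.

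Circled exons covered 30 of 40 exons of Abcc9, 21 of 25 of Ano1, 12 of 15 of F13a1, 6 of 9 of Npr3, 10 of 22 of Adgre1 and 9 of 25 of Scn7a. In Scn7a every circle lay within exons 2 to 10, and in Adgre1 within exons 3 to 12. The 70 annotated members had a median spliced length of 561 nt and a median of 4 exons, against 503 nt and 4 exons for all annotated circles. Of them, 3 (4.29%) started at exon 2, against 23.0% of all annotated circles, and 66 consisted of coding sequence alone. The median intron beside member circles was longer than the median intron of the same gene in all 6 genes, from 5545 against 1982 nt in Abcc9 to 16767 against 9815.5 nt in F13a1. Single ones could be shorter, such as the 1750 and 566 nt beside Abcc9 exons 36 to 38. Annotated members had median upstream introns of 6076.5 nt, against 5299 nt for all annotated circles. Among circles tested by limma the order was reversed, at 6900 against 9339 nt. This describes annotated lengths and was not tested.

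Levels of the 6 genes, as the sum of all circles of a gene, separated sham from TAC without overlap for Npr3 alone. The groups did not overlap for 1 of 6 host sums, where 3.24% of all 2967 tested hosts had groups that did not overlap, 1.89% with TAC lower and 1.35% with TAC higher. In the limma fit over all hosts, the main test, none of the 6 passed an adjusted p of 0.05 (background 0.0337%, 1 of 2967), and none had an unadjusted p under 0.05. The edgeR quasi-likelihood test on the recovered whole reads called 1 of 6, Npr3, lower in TAC and 0 higher (background 8.24% of 1020 hosts, 4.9% lower and 3.33% higher). The plot of host sums shows the 8 libraries for each gene.

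**Figure D2:**
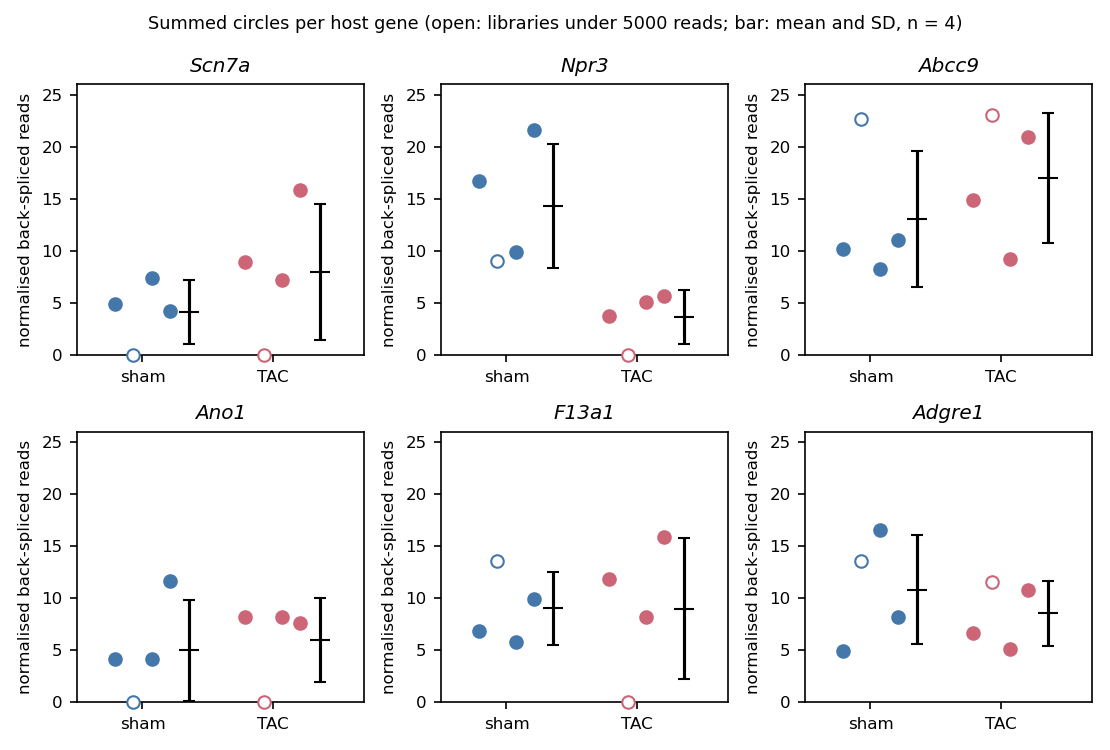
Summed circles of each host gene in normalised back-spliced reads (y axis, from 0) for the sham and TAC libraries; each point is 1 library in replicate order, open points are the libraries under 5000 reads, and the black mark gives the mean and SD (n = 4). For Npr3 the sham libraries lie between 9.09 and 21.6 and the TAC libraries between 0 and 5.72; the other panels overlap.

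Npr3 encodes the natriuretic peptide clearance receptor, which takes up and removes natriuretic peptides and is a marker of the endocardium. Its circles summed to 16.7, 9.09, 9.94 and 21.6 normalised reads in sham replicates 1 to 4 and to 3.72, 0, 5.15 and 5.72 in TAC replicates 1 to 4. Every sham library was above every TAC library. The means were 14.3 ± 5.92 in sham and 3.65 ± 2.57 in TAC (SD, n = 4 each), a ratio of 0.255. In whole reads this was 169 of 162791 back-spliced reads in sham, 111 of them in sham replicate 4, and 19 of 91445 in TAC.

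The main test did not call this difference. The limma log2 fold change, on log2(value + 0.195), was -2.62 ± 1.42 (SE, adjusted p = 0.9995, unadjusted p = 0.0653). With edgeR the log2 fold change was -2.18 ± 0.67 (adjusted p = 0.0256) and with DESeq2 -2.07 ± 0.68 (adjusted p = 0.0411). A two-sided exact permutation test over the 8 libraries gave p = 0.0286, the smallest it can give, and 0.883 after adjustment over all hosts. The edgeR call was lost without sham replicate 3 or 4 (adjusted p = 0.0708 and 0.0673), where 47 of 1326 and 19 of 976 hosts were called. It was also lost without TAC replicate 1, 3 or 4 (0.275, 0.307 and 0.151), where 11 of 961, 11 of 1366 and 20 of 970 were called. It held without sham replicate 1 or 2 or TAC replicate 2, where 84 of 971, 230 of 1381 and 111 of 1440 were called. Without the 2 libraries under 5000 reads limma and edgeR both called the Npr3 sum. Limma gave -1.64 ± 0.44 (adjusted p = 0.0479) and edgeR -2.14 ± 0.44 (adjusted p = 0.00339). Calls rose over the whole table in that setting. Limma then called 221 of 3648 hosts (36 lower, 185 higher), and edgeR 299 of 1387 (148 lower, 151 higher).

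As a share of all back-spliced reads of a library, which no size factor touches, Npr3 circles held 0.108%, 0.0505%, 0.0671% and 0.111% in sham replicates 1 to 4. The 95% Wilson intervals were 0.0804% to 0.145%, 0.0138% to 0.184%, 0.0384% to 0.117% and 0.0921% to 0.133%. In TAC replicates 1, 3 and 4 the shares were 0.0151% (0.00645% to 0.0353%), 0.0237% (0.0101% to 0.0555%) and 0.0249% (0.0131% to 0.0474%). In these TAC libraries the upper bound stayed below the lower bound of sham replicates 1 and 4, while the interval of sham replicate 2 overlapped all of them and that of sham replicate 3 overlapped TAC replicates 3 and 4. TAC replicate 2 had 0 of 1119 reads, which allows a share of up to 0.268%, so Npr3 could not be placed in that library. These intervals cover counting error only, since amplified reads are not independent molecules.

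**Figure D3:**
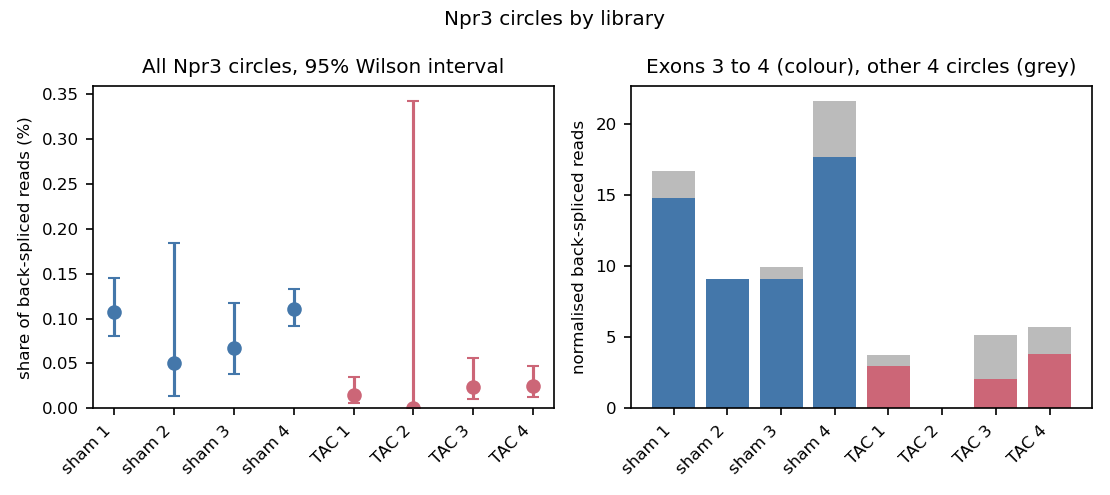
Npr3 circles in each library (x axis, sham blue, TAC red): the left panel gives their share of all back-spliced reads in percent with 95% Wilson intervals, and the right panel stacks the circle of exons 3 to 4 (colour) and the other 4 circles (grey) in normalised back-spliced reads. The coloured part runs from 9.09 to 17.7 in sham and from 0 to 3.82 in TAC, and the interval of TAC replicate 2 reaches above every other one.

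Most of the difference lay in 1 circle, the loop of exons 3 to 4 at chr15:11883298-11895804 (mm10, minus strand). It is 290 nt long, with 282 nt of coding sequence and 8 nt of 5′ UTR in the listed isoform, and lies between introns of 10809 and 24545 nt. Its junction is the leading line among the sequences above. It had 39, 2, 11 and 91 reads in sham and 4, 0, 2 and 6 in TAC, or 14.8, 9.09, 9.11 and 17.7 against 2.97, 0, 2.06 and 3.82 normalised reads. The groups did not overlap, as in 1 of 17 tested member circles and in 3.11% of the 3735 circles tested (2.22% with TAC lower, 0.884% with TAC higher). The means were 12.7 ± 4.30 and 2.21 ± 1.64 (SD, n = 4 each).

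For this circle limma gave a log2 fold change of -3.01 ± 1.51 (adjusted p = 0.834) and edgeR -2.48 ± 0.78 (adjusted p = 0.0204). It was the 1 call among 3 member circles that edgeR could test (background 13.1% of 717 circles, 5.72% lower and 7.39% higher), and DESeq2 did not call it (-2.27 ± 0.92, adjusted p = 0.204). The edgeR call held without sham replicate 2 or TAC replicate 2, where 248 of 1134 and 230 of 1216 circles were called. It was lost without sham replicate 1, 3 or 4 (adjusted p = 0.0731, 0.0907 and 0.0748) and without TAC replicate 1, 3 or 4 (0.233, 0.327 and 0.176). In those fits fewer circles were called over the whole table. The counts were 62 of 696, 39 of 1065 and 34 of 694 without those sham libraries, and 9 of 708, 0 of 1111 and 9 of 721 without those TAC libraries. Without both libraries under 5000 reads, limma (-2.15 ± 0.50, adjusted p = 0.0313) and edgeR (-2.40 ± 0.54, adjusted p = 0.00460) called the Npr3 circle. Many other circles were called there too. Limma called 1037 of 5809 circles (186 lower, 851 higher), and edgeR 344 of 1145 (156 lower, 188 higher).

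The lengths of all circles differed between libraries as well. Circles under 300 nt, the class of this Npr3 circle, held 17.3%, 12.5%, 26.4% and 31.2% of the reads with a known length in sham and 7.25%, 32.9%, 7.87% and 9.85% in TAC. The highest share was thus in TAC replicate 2, while the 3 deeper TAC libraries lay below every sham library. With the length trend of each library removed, the log2 fold change of the Npr3 circle was -2.45 ± 1.04 in limma (adjusted p = 0.524). The part of circle length in the difference was not tested further.

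The other 4 Npr3 circles together had 1.90, 0, 0.828 and 3.89 normalised reads in sham and 0.744, 0, 3.09 and 1.91 in TAC, with means of 1.65 ± 1.68 and 1.43 ± 1.35 and the groups overlapped. The circle of exons 3 to 5, which has the same first exon, was read in sham replicate 1 (1.90) and in TAC replicates 1, 3 and 4 (0.744, 2.06 and 0.636). Its limma log2 fold change was 1.12 ± 1.17 (adjusted p = 0.893). Exons 4 to 5 were read at 0.828 and 2.53 in sham replicates 3 and 4 and at 1.27 in TAC replicate 4. Exons 6 to 8 gave 7 reads, all in sham replicate 4, and exons 4 to 6 gave 1 read in TAC replicate 3. Without the circle of exons 3 to 4, the limma log2 fold change of the Npr3 sum was -0.11 ± 1.54 (adjusted p = 0.9995).

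Scn7a encodes a sodium channel of the voltage-gated family, also described as a sensor of extracellular sodium, and marks fibroblasts in the heart. Its circles summed to 4.93, 0, 7.45 and 4.28 normalised reads in sham and to 8.92, 0, 7.21 and 15.9 in TAC. The groups overlapped, each with a 0 in its library under 5000 reads. The means were 4.17 ± 3.10 and 8.01 ± 6.53, and limma gave a log2 fold change of 0.66 ± 1.56 (adjusted p = 0.9995). The direction turned without sham replicate 2 (-0.55) and without TAC replicate 4 (-0.035).

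The main Scn7a circle spans exons 5 to 9 (chr2:66726154-66743831, minus strand, 640 nt, all coding). It stood at 2.28, 0, 2.48 and 2.72 in sham and at 4.46, 0, 3.09 and 10.8 in TAC. Apart from the zeros of the shallow libraries, every TAC value exceeded every sham value. Without those libraries the median limma log2 fold change over all 5809 tested circles was 0.73, and circles that separate this way were not counted. Limma called 851 of the 5809 higher there, and this Scn7a circle was not among them. The Scn7a circle of exons 5 to 9 had a log2 fold change of 0.78 ± 1.61 in limma with all 8 libraries (adjusted p = 0.967). With the length trend removed it was -0.027. Next came exons 2 to 4 (460 nt, with 14 nt of 5′ UTR), at 2.65, 0, 4.14 and 0.195 in sham and 3.72, 0, 4.12 and 3.82 in TAC (limma log2 fold change 0.95 ± 1.59). The remaining 3 Scn7a circles had 1 to 8 reads.

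Abcc9 encodes the regulatory sulfonylurea receptor subunit of ATP-sensitive potassium channels in vascular muscle and heart, and is used as a pericyte marker. Cardiomyocytes carry this subunit as well, so its circles need not come from mural cells. Its host sums were 10.2, 22.7, 8.28 and 11.1 in sham and 14.9, 23.1, 9.26 and 20.99 in TAC. The groups overlapped, and the highest value of each group came from its library under 5000 reads. Means were 13.1 ± 6.53 and 17.1 ± 6.26, with a limma log2 fold change of 0.41 ± 1.09 (adjusted p = 0.9995).

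The Abcc9 circle of exons 12 to 15 (chr6:142664532-142675563, minus strand, 456 nt, all coding) was read in all 8 libraries. It stood at 4.55, 18.2, 1.66 and 2.33 in sham and at 5.95, 11.5, 5.15 and 6.36 in TAC. In the 6 deeper libraries every TAC value was above every sham value, while sham replicate 2 held the highest value of all, from 4 reads. The median limma log2 fold change over all 5809 circles tested in those 6 libraries was positive too, at 0.73. Limma called 851 of the 5809 higher there but not this circle (1.09 ± 0.57, adjusted p = 0.253). Circles that separate this way were not counted. With all 8 libraries, exons 12 to 15 had a log2 fold change of 0.66 ± 1.45 in limma (adjusted p = 0.976) and 0.39 ± 0.79 in edgeR (adjusted p = 0.786).

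A second block of Abcc9 lay near the 3′ end. Its circle of exons 36 to 38 (301 nt) stood at 1.14, 0, 2.48 and 4.86 in sham and at 0, 5.77, 0 and 1.27 in TAC, and 25 of its 34 reads came from sham replicate 4. Its limma log2 fold change was -0.85 ± 1.54 (adjusted p = 0.957). Between the blocks, the circle of exons 24 to 30 (900 nt) had 1 read in sham and 8 in TAC (limma 1.93 ± 1.13, adjusted p = 0.834). That of exons 15 to 18 (393 nt) had 1 and 3 reads (limma 1.36 ± 0.98, adjusted p = 0.834). The longest member, exons 7 to 23 with 2148 nt, had 7 reads, all in TAC replicates 1 and 4.

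Ano1 encodes a calcium-activated chloride channel of smooth muscle and pericytes. Its host sums were 4.17, 0, 4.14 and 11.7 in sham and 8.18, 0, 8.23 and 7.63 in TAC. The 3 deeper TAC libraries lay close together, and sham replicate 4 stood above them. Means were 4.996 ± 4.86 and 6.01 ± 4.02, and the limma log2 fold change was 0.32 ± 1.57 (adjusted p = 0.9995). With edgeR the sign was the opposite, at -0.23 ± 0.63 (adjusted p = 0.876).

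The high value of sham replicate 4 came from 1 circle seen nowhere else. The loop of exon 3 alone (chr7:144669343-144669675, minus strand, 333 nt) had 40 reads, all in that library, or 7.78 normalised reads. Among all hosts, 11 circles with 20 or more reads were confined to 1 library, and all 11 lay in sham replicate 4. This circle was the 1 among them with at least 40 reads. Without it, the Ano1 sums of sham replicates 1, 3 and 4 were 4.17, 4.14 and 3.89. The deeper TAC libraries were at 7.63 to 8.23, and sham replicate 2 and TAC replicate 2 were at 0. The means were then 3.05 ± 2.04 and 6.01 ± 4.02, and the log2 fold change was 0.71 ± 1.59 in limma (adjusted p = 0.9995) and 0.49 ± 0.66 in edgeR (adjusted p = 0.705). Over all 3648 hosts tested without the libraries under 5000 reads, and with every circle kept, the median limma log2 fold change was 0.68. Hosts that separate in the deeper libraries were not counted, and the exon 3 circle was left out after its values were seen.

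The shortest member circle was that of Ano1 exons 7 to 9 (chr7:144644708-144650554, minus strand, 150 nt). It stood at 0.379, 0, 0.828 and 1.75 in sham and at 3.72, 0, 4.12 and 3.18 in TAC, so that the deeper TAC libraries lay above all sham libraries. The 5809 circles tested in the deeper libraries had a positive median limma log2 fold change as well (0.73). Limma called 851 of them higher there, this Ano1 circle not among them, and circles that separate this way were not counted. For exons 7 to 9 limma gave 1.41 ± 1.56 over all 8 libraries (adjusted p = 0.909), and 2.73 ± 1.03 with the length trend removed (adjusted p = 0.503). Exons 2 to 3, whose circle shares its end with the exon 3 loop, stood at 1.52, 0, 0 and 0.778 in sham and at 2.23, 0, 0 and 3.82 in TAC. The Ano1 circle of exons 15 to 18 had 10 reads in sham and 3 in TAC (limma -0.50 ± 1.32, adjusted p = 0.980).

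F13a1 encodes the catalytic subunit of coagulation factor XIII, a transglutaminase that crosslinks fibrin and is made by resident macrophages. Its host sums were 6.83, 13.6, 5.80 and 9.92 in sham and 11.9, 0, 8.23 and 15.9 in TAC. The means were close, at 9.04 ± 3.52 and 9.01 ± 6.77. Limma gave a log2 fold change of -1.05 ± 1.39 (adjusted p = 0.9995), and the sign turned without TAC replicate 2 (0.43), which had no F13a1 read.

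The 3 main F13a1 circles share the start of exon 9 and differ in where they end. The loop of exons 9 to 11 (chr13:36905903-36918635, minus strand, 347 nt) stood at 2.65, 0, 1.66 and 4.47 in sham and at 0.744, 0, 1.03 and 1.91 in TAC (limma -0.84 ± 1.55, adjusted p = 0.957). The loop of exons 9 to 14 (933 nt) stood at 0.379, 4.54, 0 and 3.70 in sham and at 5.20, 0, 0 and 3.82 in TAC (limma -0.33 ± 1.55, adjusted p = 0.996). The loop of exons 9 to 13 (796 nt) stood at 1.90, 0, 4.14 and 0 in sham and at 2.23, 0, 2.06 and 3.82 in TAC (limma 0.91 ± 1.54, adjusted p = 0.951). All 3 overlapped between the groups. The remaining 15 circles had 1 to 9 reads, among them the circle of exons 6 to 8, with 6 reads that all came from TAC.

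Adgre1 encodes an adhesion receptor with epidermal growth factor-like repeats that carries the F4/80 epitope of mouse macrophages. Its host sums were 4.93, 13.6, 16.6 and 8.17 in sham and 6.69, 11.5, 5.15 and 10.8 in TAC, with overlap. Means were 10.8 ± 5.25 and 8.55 ± 3.12, and limma gave a log2 fold change of -0.27 ± 1.26 (adjusted p = 0.9995).

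The Adgre1 circle of exons 11 to 12 (chr17:57419322-57420524, plus strand, 262 nt) stood at 2.65, 0, 12.4 and 4.09 in sham and at 2.23, 11.5, 4.12 and 5.09 in TAC. The sign of its fold change differed between tools, at 1.11 ± 1.56 in limma (adjusted p = 0.935) and -0.55 ± 0.80 in edgeR (adjusted p = 0.702). The loop of exons 6 to 7 (297 nt) stood at 0.379, 0, 3.31 and 4.09 in sham and at 0.744, 0, 1.03 and 2.54 in TAC (limma -0.36 ± 1.53, adjusted p = 0.995). A circle of exons 6 to 12, which joins the start of the latter to the end of the former, had 3 reads in sham and 4 in TAC. Adgre1 exons 3 to 5 follow an intron of 40170 nt and gave a circle with 4 reads in each group.

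Over single circles, limma could test 17 of the 71 members, those above 0 in at least 4 libraries. It called 0 of the 17 (background 0.0268% of 3735). Unadjusted p was under 0.05 for 1, the Npr3 circle of exons 3 to 4 (152 of 3735 over all circles). Fold changes were positive for 10 and negative for 7, with a median of 0.66 on the log2 scale against 0.15 over all tested circles. They ran from -3.01 to 1.93. Of the 3 that edgeR tested, 1 was called lower and 0 higher. The plot of fold changes sets them beside the host sums.

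**Figure D4:**
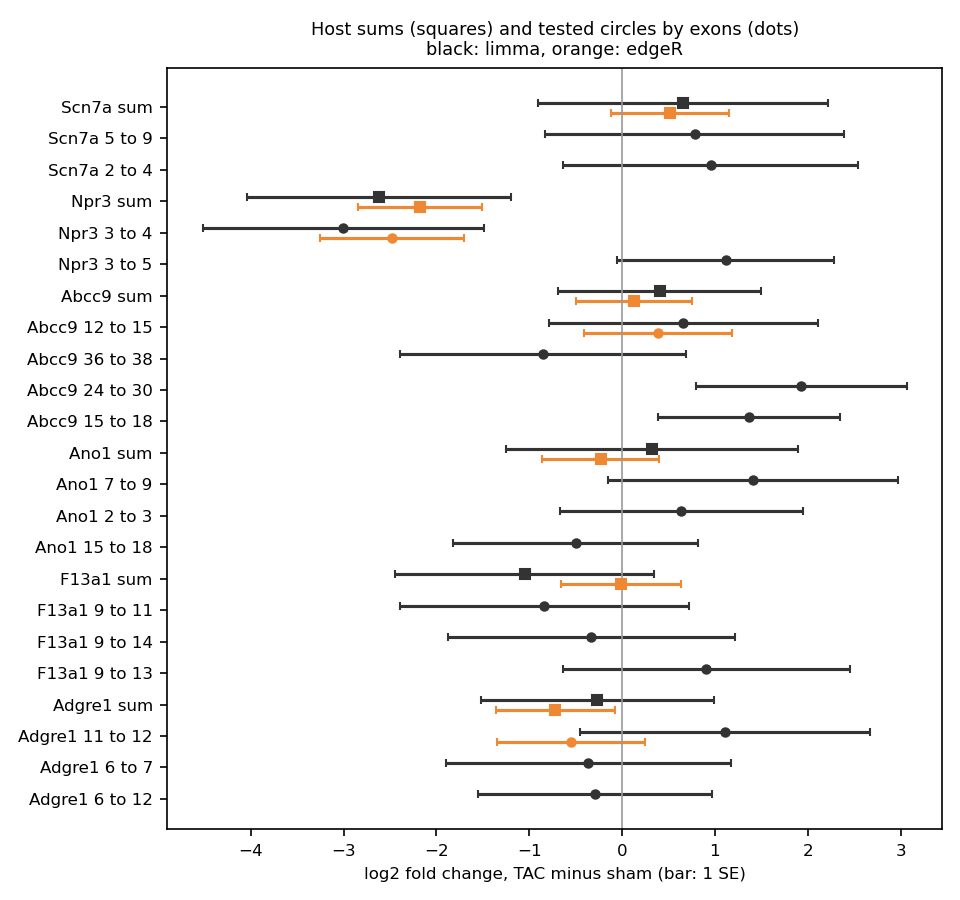
Log2 fold change of TAC over sham (x axis, bars 1 SE) for the 6 host sums (squares) and the 17 circles tested by limma (dots, named by exons). Black is limma and orange is edgeR where it could be fitted, with an SE worked back from its F statistic. The Npr3 sum (-2.62 in limma, -2.18 in edgeR) and its circle of exons 3 to 4 lie farthest from 0, and most other bars cross 0.

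Over all 6 genes, the share of back-spliced reads was near constant in sham, at 0.309%, 0.328%, 0.352% and 0.343%, and more scattered in TAC, at 0.220%, 0.536%, 0.199% and 0.335%. The means were 0.333% ± 0.0188 and 0.323% ± 0.154 (SD, n = 4 each). The highest share rested on 6 reads in TAC replicate 2 (95% Wilson interval 0.246% to 1.16%). The Npr3 circle of exons 3 to 4 is part of these sums, and without the leading circle of each gene the sham mean was 0.155% and the TAC mean 0.168%.

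By mean host sum over 8 libraries, in normalised reads that count junctions and so carry no length, the order was Abcc9 (15.1), Adgre1 (9.69), F13a1 (9.03), Npr3 (8.99), Scn7a (6.09) and Ano1 (5.50). This order pools sham and TAC. Npr3 had the highest of the 6 means in sham (14.3, against 13.1 for Abcc9) and the lowest in TAC (3.65, against 17.1 for Abcc9). The highest Abcc9 values, 22.7 and 23.1, rested on 5 and 4 reads in the libraries under 5000 reads. No neighbours in the pooled order differed beyond their spread. Abcc9 was above Adgre1 in 7 of 8 libraries, with a mean difference of 5.38 ± 6.29 (SD, two-sided exact sign-flip permutation p = 0.0625, 0.312 adjusted over 5 pairs). The other 4 neighbour pairs had exact permutation p of 0.422 or more.

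The hosts of most like pattern were taken as the 2 with the highest Pearson r of log2 host sums over the 8 libraries. These were Slf1 (r = 0.989) and Acot7 (0.988) for Npr3, Agfg1 (0.996) and Mical2 (0.996) for Scn7a, and Depdc5 (0.998) and Vps8 (0.997) for Ano1. For F13a1 they were Ptprm (0.997) and Cep350 (0.995), and for Abcc9 Rabgef1 (0.907) and Sdhc (0.898). Adgre1 had no host as close, with Poldip3 (0.763) and Spata6 (0.720). Values of 0 in the libraries under 5000 reads are shared by many hosts and raise r, so these are descriptions of the libraries.

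Partners of the 6 genes were counted over lists of related genes. Of 12 genes of the natriuretic peptide system, 9 had circles, and limma could test 6 and called 0 (0 at an unadjusted p under 0.05). Of the 4 that edgeR tested, it called 1, Npr3 (84 of 1020 over all hosts). Corin, the protease that activates the atrial peptide precursor, had the most reads (518) and stood at 33.9 ± 26.4 in sham and 60.6 ± 33.7 in TAC (limma log2 fold change 0.87 ± 0.77, adjusted p = 0.9995). No circle of Nppb, Nppc or Npr1 was in the rows analysed here. The summed level of the 8 hosts other than Npr3 ran from 21.5 to 81.8 in sham and from 11.5 to 113.2 in TAC.

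Relatives of the other 5 genes gave few circles. Of the potassium channel list only Abcc8 stood beside Abcc9, at 0.579 ± 0.743 in sham and 0 in every TAC library (10 reads). Its highest sham value, 1.56, was in sham replicate 4, which stood apart in its rare circles. Of 14 sodium channel genes 3 had circles. Of 10 anoctamins 5 had circles, with Ano6 next after Ano1 at 1.53 ± 1.37 and 7.60 ± 5.40 (limma log2 fold change 1.73, adjusted p = 0.9995). Tgm2 had 1 read beside F13a1, and of 14 adhesion receptors 9 had circles, with Adgre5 next after Adgre1 at 1.30 ± 1.61 and 2.88 ± 2.37. Neither limma nor edgeR called a host of these 5 lists, and in both 0 had an unadjusted p under 0.05.

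Circles of the 6 genes were set beside those of other markers of each cell type. These counts concern circles alone and do not test how specific a gene is to a cell type. Circles came from 11 of 18 fibroblast, 15 of 16 endothelial, 5 of 15 mural, 7 of 18 macrophage and leukocyte and 3 of 7 Schwann cell markers. In sham the mural list rested mostly on Abcc9 and Ano1: its 3 other hosts, Pdgfrb, Notch3 and Myh11, summed to 0 to 0.379 in sham and 0 to 5.77 in TAC, and Rgs5, Kcnj8, Cspg4 and Acta2 had no circle in the rows analysed here. Postn, Tcf21 and Lum for fibroblasts and Cd68, Csf1r and the C1q genes for macrophages were likewise without a circle. Notch3 was read in 1 sham and 3 TAC libraries (0.0948 ± 0.190 and 2.12 ± 2.59), with a limma log2 fold change of 2.25 ± 1.22 (adjusted p = 0.9995). The mural markers other than Abcc9 and Ano1 were thus at or near 0 in sham but not in every TAC library, and the cell source of the Abcc9 and Ano1 circles was not tested.

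Among endothelial markers Npr3 alone passed the adjusted edgeR test. Limma tested 10 of this list, 4 with positive and 6 with negative fold changes (median -0.51), and called 0, with 0 at an unadjusted p under 0.05. edgeR tested 6 and called 1, Npr3 (84 of 1020 over all hosts). Unadjusted p was under 0.05 for 2 of the 6, Npr3 among them (245 of 1020 over all hosts). The other of these, Ptprb, a receptor phosphatase of endothelial cells named here after its values were seen, had a positive edgeR log2 fold change of 1.94 ± 0.84 (adjusted p = 0.134). Pecam1, an adhesion molecule of endothelial junctions and the host of the list with the highest mean over the 8 libraries (11.2, against 8.99 for Npr3, which had more reads), stood at 10.2 ± 11.4 in sham and 12.1 ± 10.2 in TAC. The 14 hosts without Npr3 summed to 23.5 to 45.4 in sham and 5.77 to 69.3 in TAC, with the lowest value in TAC replicate 2. The 13 cardiomyocyte hosts summed to 200.4 to 808.7 in sham and 288.7 to 1710 in TAC, and the part of either list in the Npr3 difference was not tested.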

How the data were processed

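The deposited unit is signal. Judged from the values, the authors took the back-spliced reads of each circle and scaled every library by its own size factor. All values came out as whole reads when set against the smallest one in their library (100% within 0.001), and these reads were recovered. Per the submitters' processing notes the build is mm10 and the tools include HISAT2, StringTie and DESeq2, without roles. The circRNA caller, read length and strand are not stated there, so antisense partners could not be separated.

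The main test was limma 3.58.1 on log2(value + 0.195), the smallest value above 0, with a trend of variance on intensity, for features above 0 in at least 4 of 8 libraries, fitted on the whole table and adjusted by Benjamini and Hochberg at 0.05. Its SE and p follow this trend and do not reflect the spread of a single gene. Alternatives included edgeR 4.0.16 (quasi-likelihood, TMM, minimum count 5, minimum total 15) on recovered reads, which called 94 of 717 circles and 84 of 1020 hosts, DESeq2 1.42.0 and limma-voom (R 4.3.3). For edgeR the SE is the absolute log2 fold change over the square root of the F statistic, and does not come from the fit. Host sums add all circles of a gene. Shares carry 95% Wilson intervals, and a count of 0 is bounded by 3 reads.

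Starts in the table are counted from 0 (99.9% then match GENCODE M21 exon starts) and are printed from 1. Spliced lengths were found for 94.9% of circles. All 6 genes are named, with each circle seen in at least 3 libraries or among the 3 of its gene with the most reads, and 2 hosts of most like pattern. From each list the 2 hosts with the largest mean and any that pass are taken. Not every gene or circle that the rule picks is named, and some circles with few reads, relatives and absent markers were chosen after their values were seen. The members and lists were chosen with earlier results of these data known. Scripts were tested on simulated data. Replicates are separate mice per the labels, numbered in accession order. The table had 0 columns of samples without a label.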

Additional observations from a re-analysis of the deposited data

Results flagged for a closer look

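Among 62 groups of 4 libraries examined (the host sums and named circles in sham and in TAC), 13 had 1 library far from the other 3 by Dixon's criterion. Chance gives about 1 in 20. In 8 of the 13 the other 3 libraries were at 0, so that a single library with reads suffices.

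The Ano1 circle of exon 3 stood at 7.78 normalised reads in sham replicate 4 and at 0 in the other sham libraries. For Adgre1 exons 3 to 5, sham replicate 2 stood at 9.09 against 0 to 0.758 in the others, and TAC replicate 4 at 2.54 against 0. Adgre1 exons 6 to 12 stood at 4.54 in sham replicate 2, which is 1 read there, against 0 to 0.758. Sham replicate 1 alone held the sham reads of 3 Abcc9 circles, exons 24 to 30, 15 to 18 and 16 to 21, each at 0.379, which is 1 read, and of Npr3 exons 3 to 5 at 1.90. F13a1 exons 5 to 8 were read in TAC replicate 1 alone among TAC libraries (0.744, 1 read), and Npr3 exons 4 to 5 in TAC replicate 4 alone (1.27).

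In the remaining 3 groups the library under 5000 reads was the low one, at 0. These were the Ano1 host sum in TAC (the others 7.63 to 8.23), Scn7a exons 5 to 9 in sham (2.28 to 2.72) and Scn7a exons 2 to 4 in TAC (3.72 to 4.12).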

How the results depend on the processing

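No paired analysis was possible because replicate numbers follow accession order and pair no mice. Limma called 0 member circles and 0 host sums, as did every limma alternative that kept all 8 libraries except limma-voom on the recovered reads. The call count became 1, Npr3 each time, for circles and for hosts with edgeR (TMM or RLE) and limma-voom. The same held for limma or edgeR without the 2 libraries under 5000 reads, and for hosts with DESeq2. These settings also called more of the whole table. edgeR with RLE called 82 of 717 circles and 100 of 1020 hosts, and limma-voom 236 of 717 and 210 of 1020. Without the shallow libraries limma called 1037 of 5809 circles and 221 of 3648 hosts, and edgeR 344 of 1145 and 299 of 1387. DESeq2 called 42 of 576 hosts. With 1 library left out, limma called 0 member circles and 0 member hosts, and edgeR 0 to 1 of each. Over the whole table these fits called 0 to 41 circles and 1 to 28 hosts in limma. In edgeR they called 0 to 248 circles and 11 to 230 hosts. The sham share without the leading circle of each gene was 0.155%.

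No alternative turned the sign of the Npr3 sum or of its circle of exons 3 to 4. The Ano1 sum turned to -0.23 (edgeR TMM), -0.13 (RLE), -0.0087 (voom) and -0.19 (edgeR without the shallow libraries). The F13a1 sum turned to 0.10 (RLE), 0.060 (DESeq2), 0.12 (voom), 0.65 and 0.26 (limma and edgeR without the shallow libraries) and 0.46 (edgeR without its leading circle). Adgre1 exons 11 to 12 turned to -0.55 (edgeR TMM), -0.24 (RLE), -0.095 (DESeq2), -0.84 (voom), and -0.49 and -0.79 (limma and edgeR without the shallow libraries). F13a1 exons 9 to 14 turned to 0.48 (DESeq2) and to 1.09 and 0.74 (limma and edgeR without the shallow libraries), and Adgre1 exons 6 to 12 to 1.15 (limma without them). With the length trend removed, Adgre1 exons 6 to 7 turned to 0.14, F13a1 exons 9 to 13 to -0.19 and Scn7a exons 5 to 9 to -0.027. The cause was not tested.

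Leaving out 1 library gave -3.09 to -1.45 for the Npr3 sum in limma and -2.31 to -1.96 in edgeR. In limma it turned the sign of the Scn7a sum (-0.55 to 2.09), the Ano1 sum (-0.92 to 1.67), the F13a1 sum (-1.69 to 0.43), Adgre1 exons 11 to 12 (-0.086 to 1.92), 6 to 12 (-0.87 to 0.19) and 6 to 7 (-1.21 to 0.36), F13a1 exons 9 to 14 (-1.21 to 0.43) and Scn7a exons 5 to 9 (-0.17 to 1.99), but not of Abcc9 exons 12 to 15 (0.23 to 1.33). In edgeR it turned the Ano1 sum (-0.38 to 0.45) and the F13a1 sum (-0.20 to 0.26), and the ranges were -0.041 to 0.84 for Abcc9 exons 12 to 15, and, each in the 4 fits that tested it, -0.63 to 0.30 for Adgre1 exons 11 to 12 and 0.073 to 0.98 for F13a1 exons 9 to 14. The exact permutation test and host sums without the leading circle were added after the data were seen. With 1 read worth up to 5.77 normalised reads, a count of 0 or 1 in the 2 shallow libraries places a gene poorly.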

Other observations

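Macrophage markers beyond F13a1 and Adgre1 gave circles from 5 further hosts, which summed to 7.58 to 27.3 normalised reads in sham and 5.77 to 19.7 in TAC. Mertk, a receptor for the uptake of dying cells, stood at 12.2 ± 10.5 in sham and 3.19 ± 2.30 in TAC (SD, n = 4 each). It was not called by limma (log2 fold change -2.25 ± 1.49, adjusted p = 0.9995) or by edgeR (-1.56 ± 0.69, adjusted p = 0.138). Mrc1, the mannose receptor, stood at 2.88 ± 3.08 and 7.47 ± 5.36 (limma 1.17 ± 1.59, adjusted p = 0.9995). Both were named after their values were seen. Limma and edgeR called 0 of the 6 and 4 hosts of this list that they tested, with 0 and 1 (Mertk) at an unadjusted p under 0.05. Over all hosts, 90 of 2967 in limma and 245 of 1020 in edgeR had an unadjusted p under 0.05.

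Fibroblast markers beyond Scn7a gave 10 hosts with few reads each, summing to 3.31 to 5.64 in sham and 0 to 10.4 in TAC. Abca8a, a lipid transporter, stood next after Scn7a at 0.939 ± 0.787 in sham and 1.65 ± 1.33 in TAC. The collagen genes Col1a1 and Col1a2 had 1 circle each, with 10 and 9 reads, all in sham replicate 4, which stood apart in its rare circles. Limma and edgeR called 0 of the 4 and 1 hosts tested, with 0 at an unadjusted p under 0.05 in either. Among Schwann cell markers Cdh19 led, with 9 reads at 2.17 ± 2.51 in sham and 0.701 ± 0.971 in TAC.

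Cardiomyocyte circles set the scale of these values. Slc8a1 alone had 3119 reads, against 787 reads from all 6 non-myocyte genes. It stood at 105.9 ± 139 in sham and 548 ± 412 in TAC (limma log2 fold change 2.66 ± 0.40, adjusted p = 8.4e-08). With edgeR the log2 fold change was 2.37 ± 0.68 (adjusted p = 0.0173). Limma called 0 hosts with values rescaled by TMM, without the intensity trend, with robust variances, or with features above 0 in at least 6 libraries.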
